A study of Mus musculus with 8 samples.

Results

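The genes described here are 9 regulators and markers of the nephron progenitor, Six2, Eya1, Osr1, Sall1, Cited1, Meox2, Gdnf, Crym and Tmem100, out of 21631 protein-coding genes on autosomes and chromosome X. They were listed by name, with earlier results of these data known, and the list sets no threshold on a measured value. The data are the binding sites of Mta2, Mbd3 and Zbtb7a, found by chromatin immunoprecipitation with sequencing (ChIP-seq) in kidney cortex of 2-month-old mice of the genotype Mta2flx/flx. Mta2 and Mbd3 are subunits of NuRD, a complex that joins nucleosome remodelling to histone deacetylation, and Zbtb7a is a transcription repressor of the zinc finger class. There were 4 groups of 2 libraries (Mta2, Mbd3, Zbtb7a and Input), all of the same tissue, age and genotype, and the labels name no Cre driver and no sex for them. Each factor has 1 deposited peak list for both of its libraries, so the values below have no spread between mice, and no test over mice was possible. A peak was assigned to a gene when its summit, the position of the highest signal, lay in the RefSeq span of the gene (GRCm38, the same coordinates as mm10) or within 50 kb of it. This gave 89 Mta2, 74 Mbd3 and 68 Zbtb7a peaks, out of 149855, 134248 and 124616 in the lists.

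Nephron progenitors are the cells of the cap mesenchyme that surround the tips of the ureteric bud in the fetal kidney, renew themselves and turn into the epithelium of the nephron. In the mouse this population is used up soon after birth. Six2 holds the progenitors in their undifferentiated state, Eya1 is its coactivator and a phosphatase, Osr1 marks the mesoderm from which they come, and Sall1 is a zinc finger transcription factor known to recruit NuRD through a short N-terminal motif. Cited1 is a transcriptional coregulator of the least committed progenitors, Meox2 is a homeobox transcription factor, and Gdnf is the growth factor that the progenitors send to the receptor Ret on the ureteric bud. Crym, a thyroid hormone binding protein, and Tmem100, a membrane protein, are used as markers of the cap mesenchyme. The cortex is a mixture of cells, so a peak cannot be assigned to a cell type, and a site bound in few cells cannot be told apart from a site weakly bound in many.

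Peaks of all 3 factors were found around most of these genes, strong peaks around few of them, and Sall1 had the most and the strongest. Every one of the 9 genes had a Mta2 summit in its span or within 50 kb, which 90.6% of all protein-coding genes also had. Mbd3 was found at 9 of 9 (90.1% of all genes) and Zbtb7a at 8 of 9 (89.7% of all genes), Meox2 being the gene without it. Presence in the window is therefore near the level of any gene. A region without a peak lay below the authors' threshold and cannot be read as unbound.

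Strong peaks were found near fewer of them. A Mta2 peak of the strongest 10% of the list by fold, the authors' enrichment of signal over background at the summit, lay in the window of 3 of 9 genes, against 62.4% of all genes. The same 3 genes, Sall1, Crym and Tmem100, had a Mbd3 peak of the strongest 10% (59.9% of all genes) and a Zbtb7a peak of the strongest 10% (59.2% of all genes). Counting only peaks that have the gene in question as their nearest protein-coding gene, Sall1 and Crym remained in the Mta2 and Mbd3 lists (2 genes each) and Sall1 in the Zbtb7a list (1 gene). The share of all protein-coding genes under this narrower count was not taken, so these numbers cannot be set against the shares above. In the other 6 genes the highest fold in the window was lower than in most genes of the genome. In the Mta2 list it exceeded that of 11.3% to 31.3% of protein-coding genes, in the Mbd3 list 9.97% to 18.8% and in the Zbtb7a list 0% to 18.3%, with genes that lack a peak counted as lowest.

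**Figure D1:**
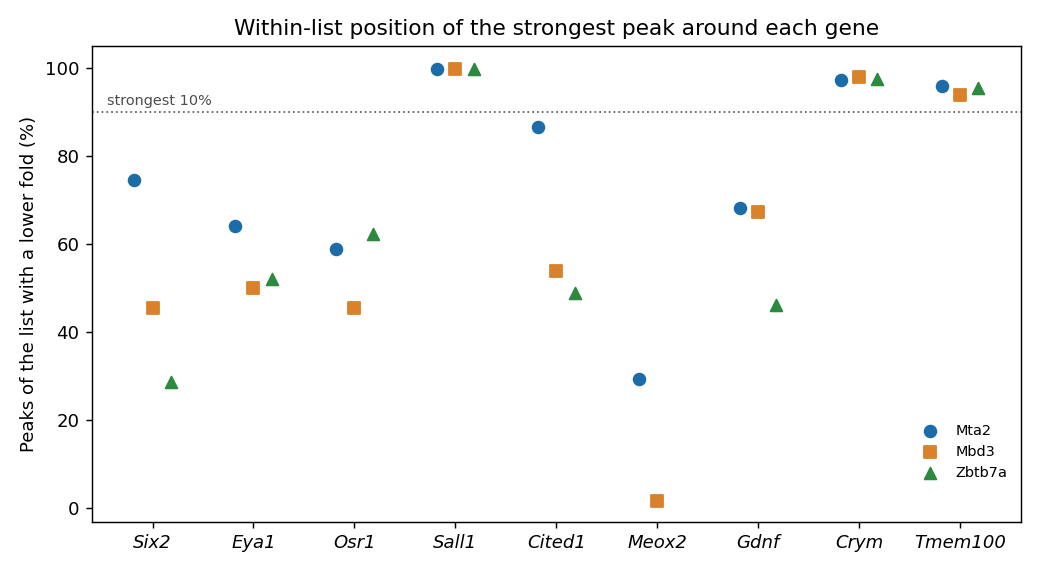
Percentage of peaks in the same list with a lower fold than the strongest peak in the window of each gene (vertical axis), for Mta2 (circles), Mbd3 (squares) and Zbtb7a (triangles). The dotted line marks the strongest 10% of a list, above which lie Sall1, Crym and Tmem100 for all 3 factors; Meox2 has no Zbtb7a point.

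Sall1, Tmem100 and Crym also had the most summits in their windows. Sall1 had 26 Mta2, 26 Mbd3 and 23 Zbtb7a summits. Tmem100 followed with 15, 13 and 11, and Crym with 12, 12 and 15. The median protein-coding gene had 12, 11 and 10, so 2 of the 9 genes exceeded it in the Mta2 list and 3 in each of the others. Six2 had 11, 4 and 2 summits, Eya1 8, 9 and 7, Gdnf 8, 5 and 3, and Osr1 5, 2 and 4. The fewest Mta2 summits were at Cited1, with 2, 2 and 3 for the 3 factors, and at Meox2, with 2, 1 and 0. The order depends on neighbouring genes. Counting only summits with the gene itself as the nearest protein-coding gene left 9, 6 and 4 at Tmem100 and 2, 2 and 3 at Crym. Sall1 kept all of its summits, and Eya1 kept its 8, 9 and 7. Since longer genes have larger windows, the counts were also taken per 100 kb of window. The median of the 9 genes was then 6.27 (Mta2), 3.72 (Mbd3) and 2.89 (Zbtb7a), and that of all protein-coding genes 8.78, 7.85 and 7.35.

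**Figure D2:**
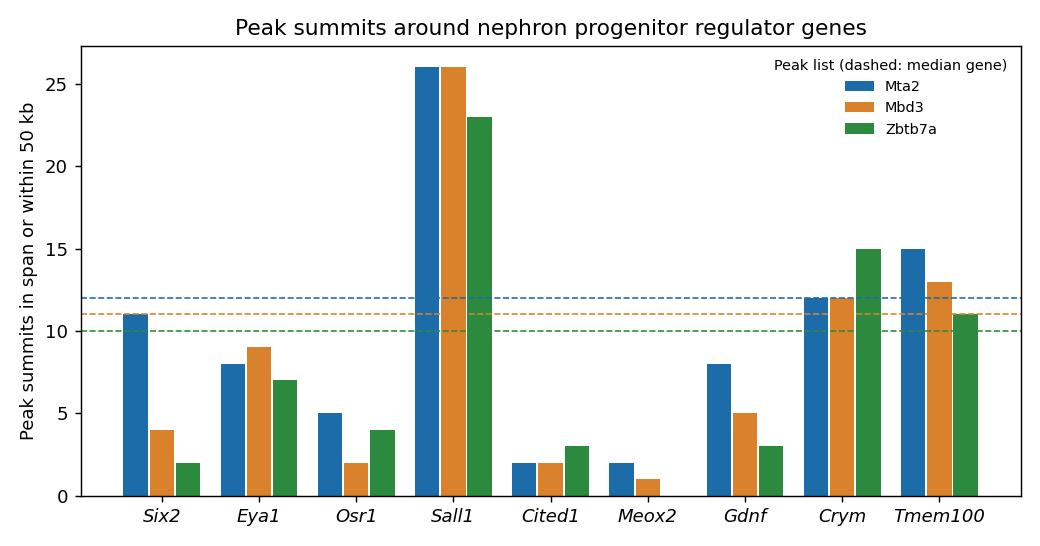
Number of peak summits in the span or within 50 kb of each gene (vertical axis, starting at 0) for the 3 peak lists, 1 bar per list. Dashed lines mark the median over all protein-coding genes, 12 (Mta2), 11 (Mbd3) and 10 (Zbtb7a), which Sall1, Crym and Tmem100 reach or exceed for every factor.

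Six2, the factor that keeps progenitors undifferentiated, carried Mta2 with little of its partners. It lies on the reverse strand of chromosome 17 (85662736 to 85688254), and its upper end is the RefSeq start. The strongest Mta2 peak (85686844 to 85689636) covered that start with a fold of 10.2, higher than 74.5% of Mta2 peaks, and its summit lay 278 bp inside the gene. At 2793 bp it was wider than 98.9% of the list. The Mbd3 peak at the same place (85687450 to 85688512) had a fold of 4.59, higher than 45.5% of its list, with the summit 225 bp inside the gene. Zbtb7a had 2 narrow peaks just upstream, 322 bp and 906 bp from the start, with folds of 2.45 and 3.49. The second of them coincided with a Mbd3 peak of fold 2.93 whose summit lay 901 bp from the start. The annotated long noncoding RNA CJ186046Rik begins 240 bp beyond the end of Six2, so peaks there cannot be assigned to one of these genes alone.

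The 250 bases before the Six2 start (RefSeq, GRCm38.p6, reverse strand, chr17:85688255-85688504) are shown because the Mta2 peak, the first Mbd3 peak and an edge of the nearer Zbtb7a peak lie over them. Capitals mark GC boxes, searched as GGGCGG on both strands.
Six2: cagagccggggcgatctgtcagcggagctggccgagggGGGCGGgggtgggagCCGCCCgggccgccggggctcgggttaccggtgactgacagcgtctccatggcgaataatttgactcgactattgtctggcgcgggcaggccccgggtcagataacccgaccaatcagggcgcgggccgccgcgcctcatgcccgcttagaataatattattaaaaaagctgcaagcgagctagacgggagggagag
There were 2 such matches and 26 CG dinucleotides, more CG than in 90.4% of the 32851 promoter windows of the same length in the table. A GC box was found in 32.7% of those windows. The other motifs searched, both on either strand, were CCTTCCCC, the Zbtb7a site known from the gamma-globin promoter (3.80% of windows), and GACCACC, from the Zbtb7a motif found in vitro (2.34%). Neither was found in these 250 bases, nor in those of any other start of the listed genes in the table.

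Away from the start, most peaks around Six2 were of Mta2 alone. Inside the gene lay 3 further Mta2 peaks with folds from 2.40 to 4.17, and 1 lay 3755 bp upstream with a fold of 2.19, all without Mbd3 or Zbtb7a. A Mta2 peak 16814 bp from the lower end (fold 4.92) met a Mbd3 peak of fold 2.31. The other 5 Mta2 summits lay at the neighbouring Six3, a related homeobox gene whose span is 36545 bp away, with folds up to 8.66. A single Mbd3 peak of fold 3.52 and no Zbtb7a peak lay there. Of the 11 merged regions in the Six2 window, 8 held Mta2 alone (72.7%), against 14.1% of all merged regions in the series. The folds of those 8, from 2.19 to 4.33, lay below the Mta2 list median of 5.21, and some of the 8 lay at Six3. Counting only summits with Six2 as the nearest protein-coding gene left 6 Mta2, 3 Mbd3 and 2 Zbtb7a. Few of the genes with the same number of Mta2 summits showed such an imbalance in their window. Of the 786 genes with exactly 11 Mta2 summits in their window, 3 had as few Zbtb7a summits as Six2 (0.382%) and 2 had as few Mbd3 summits (0.254%), Six2 included, and the medians of those genes were 9 and 10. This count was made after the values at Six2 had been seen. Of the 11 Mta2 summits used to match the genes, 5 lay at Six3. The window of Six3, which overlaps that of Six2, held 8 Mta2, 2 Mbd3 and 0 Zbtb7a summits.

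**Figure D3:**
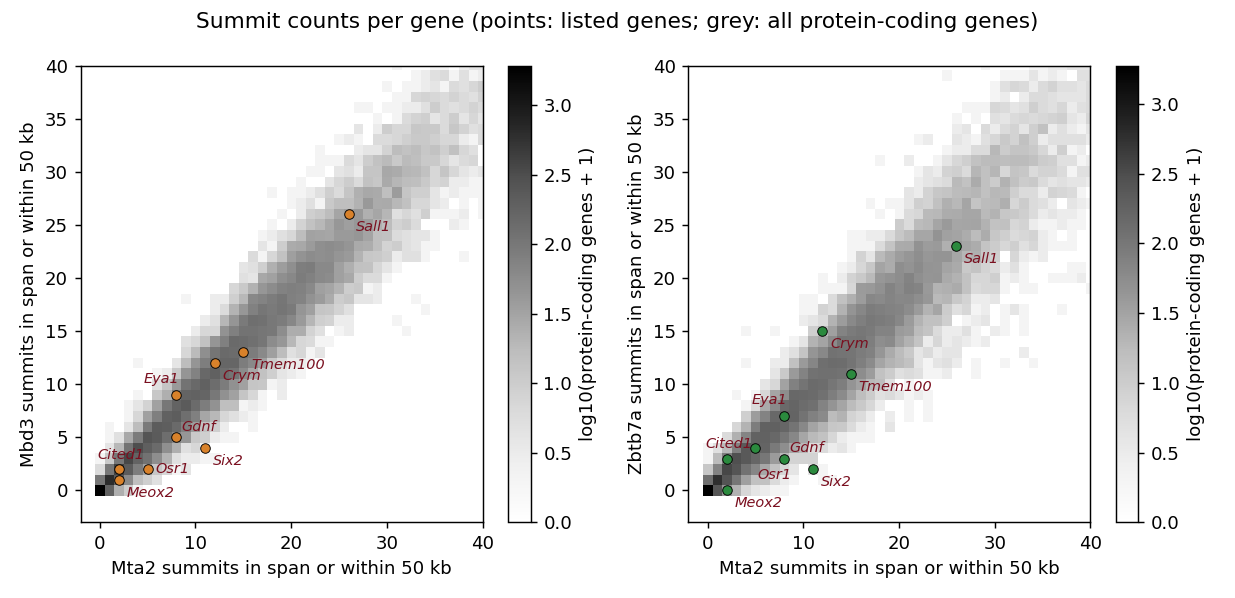
Number of Mta2 summits per gene (horizontal axis) against the number of Mbd3 (left) or Zbtb7a summits (right), with the 9 genes as labelled points and all protein-coding genes as grey shading on a log10 scale; the axes end at 40 summits. Six2 lies at 11 against 4 and 11 against 2, below the band of other genes, and Sall1 lies within the band at 26 against 26 and 26 against 23.

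Eya1, the coactivator and phosphatase that acts with Six2, had peaks of low to middle rank at shared places. It spans 142083 bp on chromosome 1 (14168953 to 14311035). Of the 9 merged regions in its window, 7 held all 3 factors. The strongest Mta2 peak (14309568 to 14310235) had a fold of 7.36 and its summit 1208 bp inside the upper end, with Mbd3 at 4.28 and Zbtb7a at 2.60. Mbd3 and Zbtb7a were strongest at another place inside the gene, 16.2 kb from the lower end, with folds of 5.03 and 5.23, where Mta2 had 6.78. These values exceeded 50.1% of Mbd3 peaks, 52.1% of Zbtb7a peaks and 60.8% of Mta2 peaks. Per 100 kb of window Eya1 had 3.30 Mta2, 3.72 Mbd3 and 2.89 Zbtb7a summits, at the 24.5, 28.9 and 26.7 percentiles of all genes. No summit lay within 1 kb of either end of the gene.

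Osr1, a zinc finger factor of the early kidney mesoderm, was bound by all 3 factors at its lower end (chromosome 12, 9574442 to 9581500). The summits lay 136 bp (Mta2), 135 bp (Mbd3) and 116 bp (Zbtb7a) outside the gene, with folds of 6.47, 3.83 and 6.67. A second place with all 3 lay about 3.5 kb above the upper end, with folds of 4.73, 4.56 and 6.35. Osr1 was the gene at which the strongest Zbtb7a peak stood higher in its list (62.3% of peaks lower) than the strongest Mta2 (59.0%) and Mbd3 peaks (45.4%) did in theirs. By fold this held at no other of the 9 genes, but with peaks ranked by −log10 q it held also at Sall1 (99.3% against 98.7% and 99.1%) and Tmem100 (96.7% against 96.6% and 95.6%). Mta2 alone had 2 further peaks near the upper end, with folds of 3.44 and 3.23, and the noncoding RNA Gm40268 begins 466 bp from that end. Zbtb7a alone had a peak of fold 2.89, 2417 bp below the gene.

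Sall1, the zinc finger factor known to bind NuRD, carried the densest and strongest binding. It lies on the reverse strand of chromosome 8 (89027242 to 89044162). Its summits numbered 22.2 per 100 kb of window in the Mta2 and in the Mbd3 list and 19.7 in the Zbtb7a list, more than in 93.2%, 94.9% and 90.6% of protein-coding genes. Its highest folds exceeded those around 96.0%, 97.9% and 96.6% of genes. No other protein-coding gene lies within 50 kb, and Sall1 was the nearest to every one of these summits.

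The strongest Mta2 and Mbd3 peaks at Sall1 lay beyond its 3′ end. At 13.8 kb below the gene Mta2 had a fold of 47.8 (89011897 to 89013733, rank 423 of its list), Mbd3 51.6 (89012059 to 89013738, rank 232) and Zbtb7a 45.0 (89012834 to 89013728, rank 1170). A second site 11.4 kb below had folds of 43.0, 38.0 and 35.6. Both sites belong to a run of 14 summits per list below the gene, the farthest Mta2 summit being 44706 bp away. At 20.6 kb below the gene Zbtb7a stood out within that run. Its fold was 42.9, higher than 98.9% of its list, where the folds of Mta2 (21.3) and Mbd3 (20.8) were higher than 92.7% and 92.9% of theirs.

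At the starts of Sall1 the peaks were among the widest of their lists. The Zbtb7a peak there (89040573 to 89047750) was its strongest around the gene, with a fold of 61.9 and rank 305, and spanned 7178 bp, a width reached by 9 Zbtb7a peaks in all. The Mta2 peak (89040466 to 89045670) had a fold of 33.5 and 5205 bp, reached by 118 peaks, and the Mbd3 peak (89040505 to 89045677) a fold of 36.3 and 5173 bp, reached by 59. These intervals covered all 3 starts that RefSeq gives for Sall1, and the noncoding RNA Gm3134 overlaps the same stretch. The 3 summits lay within 27 bp of each other, in the 250 bases before the innermost start at 89042862. Another strong site, 6.1 kb inside the outermost start, had folds of 29.0, 23.0 and 24.5.

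The bases before that innermost start (RefSeq, GRCm38.p6, reverse strand, chr8:89042863-89043112) are shown because they hold the summits of all 3 factors, at base 164 for Mta2, base 140 for Mbd3 and base 137 for Zbtb7a, counted from 1 at the 5′ end. Capitals again mark GC boxes.
Sall1: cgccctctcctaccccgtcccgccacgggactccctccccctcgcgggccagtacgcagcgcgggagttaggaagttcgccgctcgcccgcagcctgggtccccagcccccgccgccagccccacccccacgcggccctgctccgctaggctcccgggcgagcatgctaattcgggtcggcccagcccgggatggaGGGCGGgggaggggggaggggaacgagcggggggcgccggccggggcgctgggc
This stretch held 30 CG dinucleotides, more than 94.1% of promoter windows, and was 78.4% G or C. It held 1 GC box, at base 197.

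**Figure D4:**
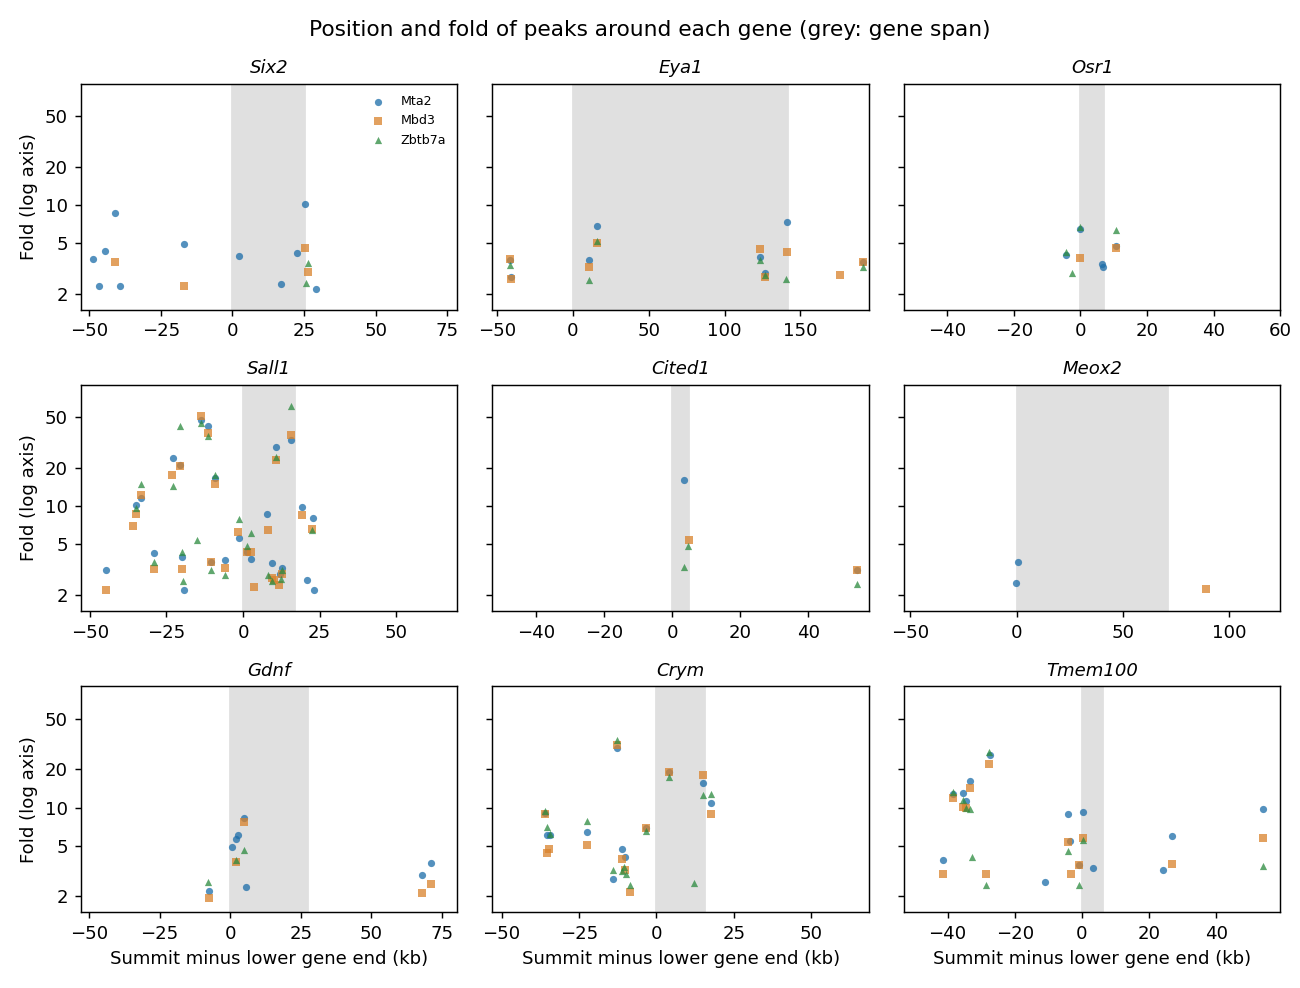
Distance of each summit from the lower end of the gene in kb (horizontal axis) and fold of the peak (vertical log axis) in the windows of the 9 genes, with the gene span in grey and 1 symbol per factor. Sall1 shows a run of peaks below and inside the gene with folds up to 61.9. The Six2 window, which takes in Six3, shows Mta2 circles at 8 places without another factor. Meox2 shows 3 weak peaks in all.

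Meox2, a homeobox factor, had the least binding of the 9 genes. It lies on the forward strand of chromosome 12 (37108540 to 37179534). Mta2 had 2 peaks at its start, 285 bp upstream with a fold of 2.50 and 662 bp inside with a fold of 3.65. These were higher than 5.41% and 29.4% of Mta2 peaks. Mbd3 had 1 peak, 17868 bp beyond the upper end, with a fold of 2.22 that exceeded 1.79% of its list. The nearest Zbtb7a summit lay 51900 bp from the gene, just outside the window, with a fold of 3.22. The weaker Mta2 peak covers part of the bases before the start (RefSeq, GRCm38.p6, forward strand, chr12:37108290-37108539). They are printed beside those of the innermost Sall1 start, with the GC box in capitals.
Meox2: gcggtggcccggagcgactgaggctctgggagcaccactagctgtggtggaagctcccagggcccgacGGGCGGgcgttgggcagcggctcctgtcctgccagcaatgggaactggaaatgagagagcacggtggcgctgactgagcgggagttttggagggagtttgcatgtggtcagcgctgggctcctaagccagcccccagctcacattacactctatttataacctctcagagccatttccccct
It held 1 GC box and 12 CG dinucleotides, more CG than 66.5% of promoter windows, against 30 at the innermost Sall1 start. The other Sall1 starts, under the same peaks, had 25 and 13 CG dinucleotides and 4 and 0 GC boxes. A relation between CG content and binding was not tested.

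Cited1, the transcriptional coregulator, had its highest folds at its starts, where the Mta2 peak stood higher in its list than those of the other factors did in theirs. The gene lies on the reverse strand of chromosome X (102247378 to 102252181). A single Mta2 peak of 2499 bp (102250302 to 102252800) covered the 3 RefSeq starts with a fold of 16.1, higher than 86.7% of its list. The Mbd3 peak (102250583 to 102252451) had a fold of 5.44, higher than 53.8%, and Zbtb7a had 2 peaks there of folds 3.34 and 4.89. The summits did not coincide. That of Mta2 lay in the bases before the innermost start at 102250776, and that of Mbd3 lay 1287 bp away, 35 bp inside the outermost start. This was the widest spacing between Mta2 and Mbd3 summits among the 55 merged regions with all 3 factors. The weaker Zbtb7a summit lay near that of Mta2 and the stronger near that of Mbd3. The other summits in the window lay 49364 to 49398 bp above the gene inside Hdac8, a histone deacetylase gene, with folds of 3.13, 3.12 and 2.45, and were the last inside the 50 kb limit. The closest outside it were a Mta2 peak of fold 3.65, 51856 bp from Meox2, and a Mbd3 peak of fold 5.34, 51709 bp from Tmem100.

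The bases before the innermost start of Cited1 (RefSeq, GRCm38.p6, reverse strand, chrX:102250777-102251026) are shown because the Mta2 summit falls on base 168 and the weaker Zbtb7a summit on base 216. No motif searched was found, so no base is in capitals.
Cited1: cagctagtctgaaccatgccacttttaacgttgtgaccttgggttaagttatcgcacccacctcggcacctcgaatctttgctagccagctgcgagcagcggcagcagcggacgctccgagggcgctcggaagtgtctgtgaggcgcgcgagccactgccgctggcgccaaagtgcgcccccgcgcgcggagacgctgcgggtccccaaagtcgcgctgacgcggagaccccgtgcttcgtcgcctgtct
They held 30 CG dinucleotides, as many as the printed Sall1 stretch. The bases before the other Cited1 starts held 9 and 13.

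Gdnf, the ligand of the Ret receptor, was bound over its first 6 kb (forward strand of chromosome 15, 7810048 to 7837580). Mta2 had 5 summits there, 717, 1952, 2886, 4823 and 5808 bp inside the start, with folds of 4.91, 5.63, 6.11, 8.34 and 2.36. Mbd3 and Zbtb7a shared the second and the fourth of these places, with folds of 3.73 and 7.65 for Mbd3 and of 3.89 and 4.63 for Zbtb7a. The strongest place was the fourth for every factor (7814512 to 7815076 for Mta2), higher than 68.3% of Mta2, 67.4% of Mbd3 and 46.2% of Zbtb7a peaks. No peak covered the bases before the outer start. All 3 factors also had weak peaks about 7.6 to 7.8 kb upstream, with folds of 2.22, 1.93 and 2.57. Inside the neighbouring Wdr70 lay 2 weak Mta2 and 2 weak Mbd3 summits and none of Zbtb7a. Of the 754 genes with 8 Mta2 summits, 3.58% had as few Zbtb7a summits as Gdnf.

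Crym, the thyroid hormone binding protein, had strong peaks of its own and stronger ones at a neighbour (chromosome 7, 120186380 to 120201989). The strongest peaks in the window had folds of 29.3 (Mta2), 31.3 (Mbd3) and 33.9 (Zbtb7a) and lay 12.6 kb below the gene, at the lower end of Anks4b, which is 2664 bp from Crym. Inside Crym, 4.1 kb from the lower end, all 3 factors had a wide peak (120188874 to 120190705 for Mta2) with folds of 19.0, 19.0 and 17.4, higher than 90.5%, 91.3% and 88.6% of their lists. At the upper end the summits lay 583, 585 and 554 bp inside the gene, with folds of 15.5, 18.1 and 12.5. A further site with folds of 10.8, 8.93 and 12.7 lay at the end of Abca14, about 1.9 kb above. The Crym window held more Zbtb7a than Mta2 summits, 15 against 12, as did that of Cited1 with 3 against 2. Only 3 of those 15 and 2 of those 12 had Crym as the nearest protein-coding gene. For Crym, 98.2% of the 774 genes with 12 Mta2 summits had as many Zbtb7a summits or fewer.

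Tmem100, a membrane protein, had moderate binding near the gene (chromosome 11, 90030348 to 90036508). All 3 factors had a summit just inside the lower end, at 331, 324 and 317 bp, with folds of 9.18, 5.74 and 5.56. These exceeded 71.4% of Mta2, 56.3% of Mbd3 and 54.8% of Zbtb7a peaks. The strongest peaks in the window, with folds of 26.0, 22.1 and 27.4, lay 27.5 kb below the gene at the upper end of Pctp, a lipid transfer protein gene. Pctp and the 1 kb around it held 6 of the 15 Mta2, 7 of the 13 Mbd3 and 7 of the 11 Zbtb7a summits. A site about 47.9 kb above Tmem100, with no nearer protein-coding gene, had folds of 9.70, 5.74 and 3.45.

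The factors mostly shared their places. Of the 96 merged regions around the 9 genes, 55 held all 3 factors (57.3%), against 61.4% of the 164813 regions in the series. Sall1 had 20 of its 28 regions with all 3, Crym 11 of 14, Tmem100 9 of 15, Eya1 7 of 9, Gdnf 3 of 8, Osr1 2 of 6, Cited1 2 of 2, Six2 1 of 11 and Meox2 0 of 3. Mta2 alone held 20 regions (20.8%), 8 of them in the Six2 window, which takes in Six3. Mbd3 alone held 4 and Zbtb7a alone 3. Sall1 gave 28 of the 96 regions and 20 of the 55 shared ones, and 35 shared ones remained without it. Where all 3 were present, the strongest summits lay close together, with a median distance of 24 bp between Mta2 and Mbd3, 20 bp between Mta2 and Zbtb7a and 19 bp between Mbd3 and Zbtb7a. The distance was at most 100 bp in 51, 49 and 49 of the 55 regions.

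The share of summits inside the genes was near that over all genes. Of the summits in the windows, 30 of 89 (Mta2), 22 of 74 (Mbd3) and 21 of 68 (Zbtb7a) were inside a span, or 33.7%, 29.7% and 30.9%. Summed over the windows of all protein-coding genes the shares were 30.0%, 29.6% and 28.9%. A Mta2 summit inside the span was found at 9 genes (67.5% of all genes), a Mbd3 summit at 7 (66.2%) and a Zbtb7a summit at 6 (65.8%). A summit within 1 kb of a gene end was found at 6 for Mta2 (67.2% of all genes), at 5 for Mbd3 (65.5%) and at 5 for Zbtb7a (65.6%). Eya1 and Sall1 had none there for any factor, although the wide Sall1 peaks reach over its upper end. Meox2 and Gdnf had Mta2 alone near an end, and Cited1 had Mbd3 and Zbtb7a without a Mta2 summit. The median fold of the peaks around the 9 genes was 4.68 (Mta2), 4.38 (Mbd3) and 4.57 (Zbtb7a), and the medians of the whole lists were 5.21, 5.02 and 5.00. Of these peaks, 9, 9 and 7 belonged to the strongest 10% of their lists, and Sall1 held 6, 5 and 5 of them.

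Strong peaks were also counted around related genes outside the list. Of 15 family members (other genes of the families of Six2, Eya1, Osr1, Sall1, Cited1 and Meox2), 8 had a Mta2 peak of the strongest 10% in the window, 8 a Mbd3 peak and 6 a Zbtb7a peak, or 53.3%, 53.3% and 40%. The list itself had 3 of 9 for each factor (33.3%), and no test of this difference was made. The shares of all genes, 62.4%, 59.9% and 59.2%, were higher than both. The family members with the most Mta2 summits were Eya2 (34), Eya3 (27) and Meox1 (20). Six3, which shares part of its window with Six2, had 8 Mta2, 2 Mbd3 and 0 Zbtb7a summits. Of 27 other genes of progenitor upkeep and of the niche, 19, 16 and 18 had a peak of the strongest 10% (70.4%, 59.3% and 66.7%), near the shares of all genes. The most Mta2 summits were at Dach1 (37), a cofactor of Eya proteins, Bmp7 (34), a growth factor made by progenitors, and Npnt (31), a ligand of integrin alpha 8. None of the family or niche genes lacked all 3 factors.

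The tissue label was checked with 9 markers of proximal tubule (Lrp2, Cubn, Slc34a1, Slc5a2), podocytes (Podxl), thick ascending limb (Umod, Slc12a1), distal tubule (Slc12a3) and collecting duct (Aqp2). Binding does not measure expression, so this is not a test of the tissue. All 9 had a summit of each factor within 1 kb of a gene end, against 67.2% (Mta2), 65.5% (Mbd3) and 65.6% (Zbtb7a) of all genes. A peak of the strongest 10% of each list lay in the window of 8, Aqp2 being the exception, against 62.4%, 59.9% and 59.2% of all genes. The median number of summits around the markers was 22 (Mta2), 22 (Mbd3) and 20 (Zbtb7a), above the medians of 8, 5 and 4 for the progenitor genes. Per 100 kb of window the medians were 15.0, 13.3 and 15.9, against 6.27, 3.72 and 2.89 for the progenitor genes. Over all protein-coding genes they were 8.78, 7.85 and 7.35.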

How the data were processed

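ChIP-seq libraries of Mta2, Mbd3, Zbtb7a and Input, 2 each, were made from kidney cortex crosslinked with 2 mM disuccinimidyl glutarate and 1% formaldehyde, and sequenced from both ends to 100 M reads, all per the labels' protocols. Bowtie2, deepTools, MACS2, bedtools and mm10 are named in the submitters' processing notes. Versions, settings and the way the libraries of a factor were combined were not given in the sources used here. Library depth and the Input were not analysed here. The deposited lists are in narrowPeak layout and give, per peak, the fold enrichment (a ratio), the −log10 q value, a score made from it that was not used, and the summit's offset. The lowest deposited −log10 q was 1.30 to 1.31.

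Peaks on autosomes and X were ranked by fold within each list and assigned to RefSeq genes by summit with Python 3.11.15 and pandas 2.3.3. Folds were not compared between lists. Peaks sharing at least 1 bp were merged into regions. Promoter sequences, 250 bases before each start, came from RefSeq (GRCm38.p6). The table held 5 of the 9 genes, with 10 starts. Counting was checked on simulated peaks. The text names every listed gene, and, of the other lists, the 3 genes with the most Mta2 summits and any without a summit. Genes and lists were chosen with earlier results of these data known, so no set test was made. The strand of Eya1, Osr1, Crym and Tmem100 was not taken, and their ends are called lower and upper by coordinate. Of the markers of cortex cell types, 1 is not reported here.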

Additional observations from a re-analysis of the deposited data

How the results depend on the processing

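The number of listed genes with a summit was taken again under the alternatives set out for it. It stayed within 1.5 times of 9, 9 and 8 (Mta2, Mbd3, Zbtb7a), except for Zbtb7a with a fold of at least 5. That setting left 5 genes for Zbtb7a and 6 for Mbd3, the latter exactly at the limit of 1.5 times. The matching shares of all protein-coding genes were not counted. With the strongest 10% of each list, an alternative chosen after seeing the data, 3 genes remained for each factor. The shares of all protein-coding genes were then 62.4%, 59.9% and 59.2%. The numbers of summits (89, 74 and 68) and of regions with all 3 factors (55) moved with the window by construction. They were 30, 22, 21 and 19 in the gene spans alone, 49, 37, 38 and 31 with 10 kb, and 138, 117, 104 and 87 with 100 kb. The minimum fold of 5 lay near the medians of the whole lists (5.21, 5.02 and 5.00). Requiring that fold left 41, 32, 31 and 25, and requiring −log10 q values of 10 or more left 58, 43, 38 and 34. Without Sall1, also chosen after seeing the data, 48 Mbd3 and 45 Zbtb7a summits and 35 regions remained. Assigning intervals by any overlap changed none of these counts, and counting only peaks nearest to the listed gene left 65, 53, 48 and 40. Of the Mta2 peaks around the 9 genes, 62.9% overlapped both other lists, whether 1 bp or at least 50 percent of the shorter interval was required. The same share over the whole Mta2 list was not counted. Ranking by −log10 q moved the within-list position of a gene's strongest peak by at most 7.88 percentage points, and Osr1 was then no longer alone in having Zbtb7a highest. No paired analysis was possible because each list holds both libraries of its factor together, and for the same reason no replicate could be left out. Depth per library is not in these lists, so absence of a weak peak was not separable from limited depth.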

Other observations

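The genes with 11 Mta2 summits and no more than 2 Zbtb7a summits in their window were Six2, Pde5a and Lepr, named after their values were seen. Pde5a, a cyclic GMP phosphodiesterase gene, had 3 Mbd3 summits and Lepr, the leptin receptor gene, had 5. Their strongest Zbtb7a peaks had folds of 22.9 and 8.39, against 3.49 at Six2, so of these 3 genes Six2 had both few and weak Zbtb7a peaks. Pde5a and Lepr also had higher Mta2 folds than Six2, at 15.1 and 26.7 against 10.2.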
